A study of Homo sapiens with 12 samples.

Results

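The lamina-associated domains (LADs) of the 5 acrocentric human chromosomes, 13, 14, 15, 21 and 22, were examined in naive and primed embryonic stem cells. All intervals on these chromosomes in the naive and primed LAD lists were taken. They numbered 1906 of the 14849 intervals in both lists, with 1212 of 9178 in the naive list and 694 of 5671 in the primed list. Per chromosome the naive and primed lists held 323 and 193 LADs on chromosome 13, 391 and 216 on chromosome 14, 316 and 168 on chromosome 15, 179 and 114 on chromosome 21, and 3 and 3 on chromosome 22. The study used H9, an established human embryonic stem cell line, kept either in RSeT medium (the naive state) or in mTeSR medium (the primed state), with no further treatment. DNA near the nuclear lamina was marked by pA-DamID: an antibody against lamin B1 (LMNB1) tethers the bacterial methylase Dam, which methylates adenine in nearby GATC sites, and the methylated fragments are sequenced. Each state had 3 LMNB1 libraries and 3 libraries with untethered Dam (Dam-only) as the control, 12 libraries in all. A single cell line was used, and nothing in the labels tells if a group's 3 libraries were grown separately.

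Acrocentric chromosomes have their centromere close to one end. Their short arms carry the ribosomal RNA gene arrays, called nucleolar organizer regions, around which the nucleolus forms, and these arms are otherwise made mostly of repeats. In many cell types the DNA next to centromeres and the gene-poor DNA of the arms lies at either the lamina or the nucleolus, which are both repressive surroundings. LADs are typically long, gene-poor, rich in A and T, and largely alike between cell types, with a smaller part that differs by cell state.

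The sequences below belong to genes on these chromosomes whose LAD call differed between the states, shown with a neighbour that did not differ. The first set gives mature microRNAs of a cluster on chromosome 21, where MIR99A and MIRLET7C lay in a primed LAD only and their neighbour MIR125B2 lay in LADs of both states. Sequences are from RefSeq (GRCh38.p14), 5′ to 3′, with the seed (bases 2 to 8) in capitals. The hairpin genes lie at chr21:16539089-16539169 (MIR99A), chr21:16539828-16539911 (MIRLET7C) and chr21:16590237-16590325 (MIR125B2), all on the plus strand.
hsa-miR-99a-5p: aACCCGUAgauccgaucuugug
hsa-let-7c-5p: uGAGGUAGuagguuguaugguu
hsa-miR-125b-5p: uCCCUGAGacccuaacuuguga
The 3 seeds differ, so these neighbours are not copies of 1 microRNA. In the primed list 1 LAD of 70 kb (chr21:16470001-16540000) ended on the window that holds MIR99A and MIRLET7C, and no naive LAD covered that window. MIR125B2 lay in a naive LAD of 60 kb (chr21:16590001-16650000) and in a primed LAD of 10 kb (chr21:16590001-16600000).

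The second set gives the 250 bases before an annotated start of genes whose bodies lay in LADs of 1 state only. They were chosen after their values were seen. Each is from RefSeq (GRCh38.p14), written 5′ to 3′ on the strand of its gene, with every GATC, the site that Dam methylates, in capitals. GATC reads the same on both strands. GPC6 encodes glypican 6, a heparan sulfate proteoglycan of the cell surface. The promoter shown (chr13:93226557-93226806, plus strand) lay in a primed LAD only. It belongs to a start at 93226807, inside the gene body used for the LAD call, which begins at 93216529.
GPC6: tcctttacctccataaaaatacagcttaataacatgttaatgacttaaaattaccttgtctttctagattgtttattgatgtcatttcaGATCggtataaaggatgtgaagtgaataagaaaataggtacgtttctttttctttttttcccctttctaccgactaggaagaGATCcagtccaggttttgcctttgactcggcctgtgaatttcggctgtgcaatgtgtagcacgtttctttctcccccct
MNAT1 encodes a subunit of the CDK-activating kinase, and its promoter (chr14:60734511-60734760, plus strand) also lay in a primed LAD only.
MNAT1: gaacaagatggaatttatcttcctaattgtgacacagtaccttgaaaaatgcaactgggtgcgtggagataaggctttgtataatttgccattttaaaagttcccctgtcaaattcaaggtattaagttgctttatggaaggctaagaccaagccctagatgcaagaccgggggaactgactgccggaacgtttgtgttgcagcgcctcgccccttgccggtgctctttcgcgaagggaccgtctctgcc
HDC encodes histidine decarboxylase, which makes histamine, and its promoter (chr15:50265727-50265976, minus strand) lay in a naive LAD only.
HDC: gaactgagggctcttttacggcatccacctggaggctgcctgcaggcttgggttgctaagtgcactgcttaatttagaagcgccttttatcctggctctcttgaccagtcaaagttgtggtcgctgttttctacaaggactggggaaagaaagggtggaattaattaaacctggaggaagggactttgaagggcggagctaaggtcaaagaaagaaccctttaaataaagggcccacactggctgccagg
TRIM9 encodes a brain-enriched ubiquitin ligase, and its promoter (chr14:51095106-51095355, minus strand) lay in LADs of both states although 79.4% of the gene body was in naive LADs and 4.26% in primed LADs.
TRIM9: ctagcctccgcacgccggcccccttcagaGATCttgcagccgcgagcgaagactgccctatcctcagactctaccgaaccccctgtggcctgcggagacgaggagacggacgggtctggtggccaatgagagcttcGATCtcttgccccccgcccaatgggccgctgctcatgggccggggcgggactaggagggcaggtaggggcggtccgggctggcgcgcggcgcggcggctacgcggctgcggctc
The GPC6 and TRIM9 stretches held 2 GATC sites each, and those of MNAT1 and HDC held 0. At least 1 GATC was present in 35.8% of the 34789 promoters in the table, so most promoters of this length hold none. Where a promoter holds none, a LAD call over it comes from sites elsewhere in its window or from joined neighbours.

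Each state is represented by 1 list of intervals with chromosome, start and end, and with no score, signal or read number. All edges were multiples of 10 kb, so each LAD is made of whole 10 kb windows. How many reads stood behind a window is unknown, and a window without a call cannot be told apart from one where reads map poorly or GATC is rare. The lists do not keep libraries apart, so replicate error is unknown, no difference between naive and primed cells was tested, and the share of cells in which a region touched the lamina is unknown. For coverage, the long arm was counted from the window of the first annotated gene past the centromere to the last annotated gene or LAD. This gave 96.2 Mb for chromosome 13, 88.5 Mb for 14, 82.1 Mb for 15, 33.7 Mb for 21 and 35.5 Mb for 22, or 336 Mb together. The other 18 chromosomes were counted from their first annotated gene to the same kind of end. Their spans thus hold both arms and the centromere, unlike the long arms.

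Pooled, LADs covered less of the acrocentric long arms than of the other chromosomes, though not on every arm, and chromosome 22 was nearly bare. Over the 5 arms naive LADs covered 40.3% and primed LADs 38.1%. The same shares were 49.96% and 45.7% over the other 18 chromosomes, counted over both arms and the centromere, and 48.9% and 44.8% over all 23. A long arm is thus set beside whole chromosomes. Without chromosome 22 the 4 remaining arms stood at 45.0% and 42.6%. Naive coverage exceeded primed coverage by 2.22 percentage points on the acrocentric arms and by 4.28 points on the others. The sign on the acrocentric arms turned to -1.21 points when LADs under 100 kb were left out, and the difference was 4.21 points once gaps under 50 kb were closed. Without chromosome 15 the other 4 arms together differed by 0.953 points.

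The arms ranged widely, from the gene-poor chromosome 13 to the gene-dense chromosome 22. Chromosome 13, the poorest in genes of the 5 with 3.49 protein-coding genes per Mb, had 62.2% of its arm in naive LADs and 60.8% in primed LADs. Both were above chromosome 18, its nearest in gene density (3.34 genes per Mb), which had 56.1% and 46.9% over both of its arms. On the arm of chromosome 14 (6.81 genes per Mb) the shares were 43.9% and 42.4%. Chromosome 21 (6.50 genes per Mb) had 36.2% and 37.1%. The small differences between the states on chromosomes 13, 14 and 21 depended in sign on short LADs and gaps. The sign turned on chromosomes 13 and 14 when LADs under 50 kb were left out (-0.249 and -0.892 points). On chromosome 21 it turned once gaps under 50 kb were closed (1.01 points). Chromosome 15 (7.33 genes per Mb) had 29.8% in naive and 23.6% in primed LADs, a gap of 6.15 points, and 5 of the other 18 chromosomes had a larger one. Chromosome 22 (12.4 genes per Mb) had 3 LADs of 10 kb in each list, 0.0844% of its arm, and no window in both. Chromosome 17, the nearest other chromosome in gene density at 13.9 genes per Mb, had 13.3% and 10.8% in LADs over both of its arms. The gene-dense chromosome 19 (24.1 genes per Mb) was the other nearly bare one, with 0.0854% and 0.154%. Why chromosome 22 had so few LADs was not tested, and without depth a call that failed there cannot be told apart from distance to the lamina.

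**Figure D1:**
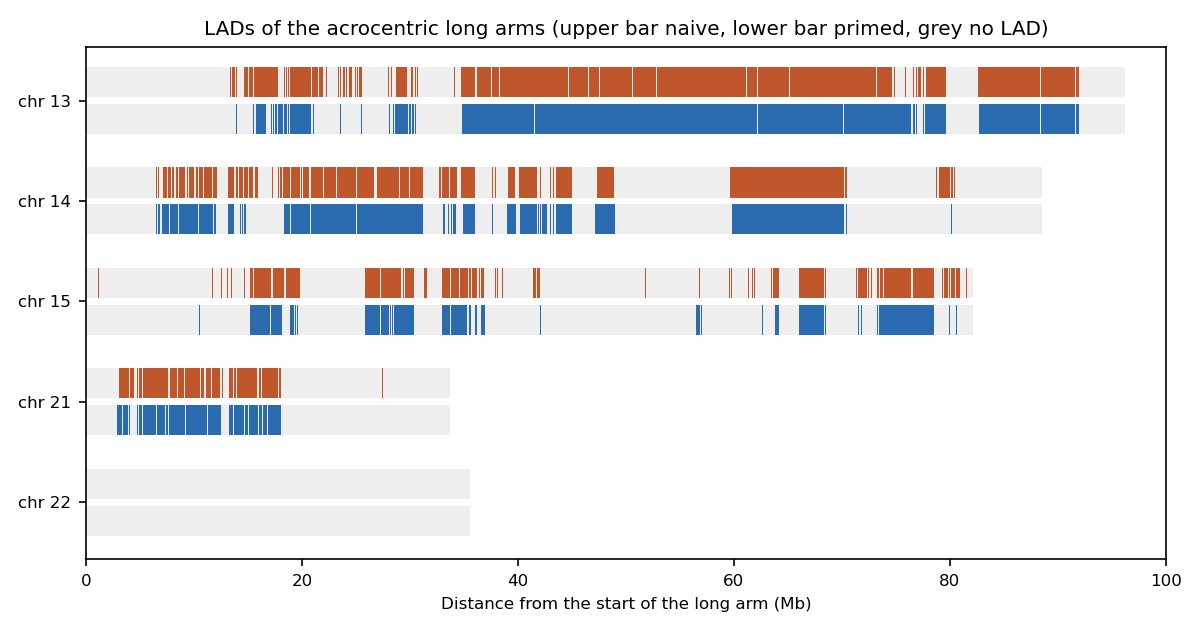
LADs along the 5 acrocentric long arms, by distance in Mb from the window of the first long-arm gene. For each chromosome the upper bar shows naive LADs and the lower bar primed LADs, coloured where a LAD was called and grey elsewhere. LADs of 10 kb are thinner than a pixel and can be invisible, as on chromosome 22. Chromosomes 13 and 15 begin with 10 Mb that are nearly bare in both lists, while chromosome 21 is covered from about 3 Mb.

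**Figure D2:**
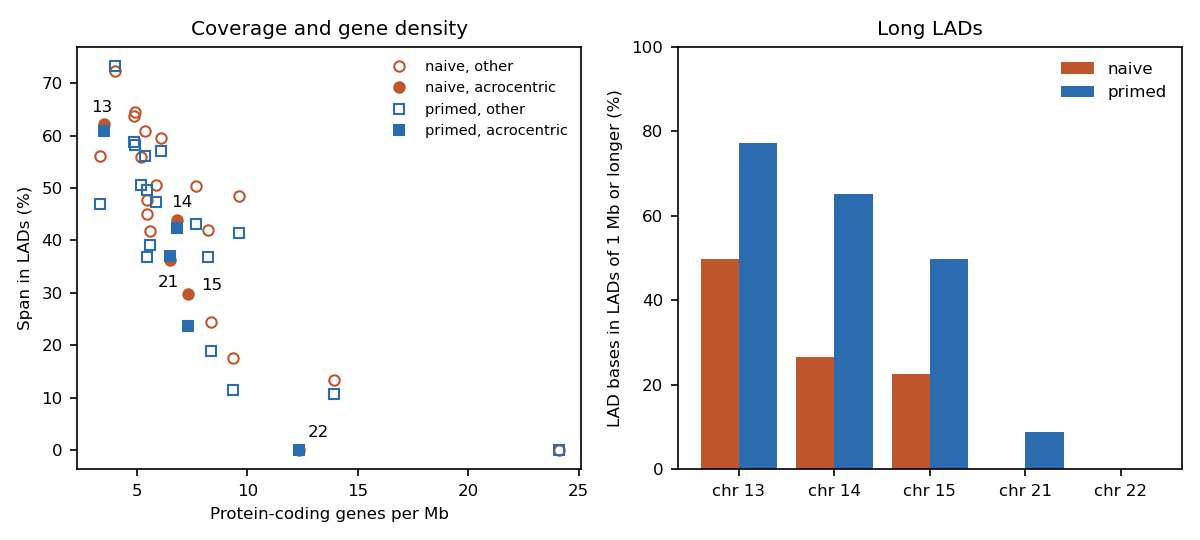
Left, share of each chromosome's span in LADs (%) against its number of protein-coding genes per Mb, with filled points for the 5 acrocentric chromosomes (numbered at their naive value) and open points for the other 18. The span is the long arm for the 5 and the whole chromosome from its first gene for the other 18. Right, share of LAD bases (%) that lay in LADs of 1 Mb or longer on each acrocentric chromosome. Chromosomes 14, 15, 21 and 22 lie below the other chromosome nearest to each in gene density, in both lists. Chromosome 13 lies above its nearest, chromosome 18, in both lists. On chromosomes 13, 14, 15 and 21 the primed bar is the higher one.

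The first LAD after the short arm was a single window in nearly every case, and long LADs began many megabases further on. On chromosome 13 the long arm began with LOC124903223 (position 18176737) and its first protein-coding gene was TUBA3C, an alpha-tubulin gene. The first naive LAD (22590001 to 22600000) held no gene and the first primed LAD (18420001 to 18430000) overlapped LOC102724148. The first LAD of at least 100 kb started 13.88 Mb into the arm in the naive list, over FRY, which encodes a regulator of cell morphology, and 15.86 Mb into it in the primed list, over LOC124903153, VDAC1P12 and LOC124900343. Before those points LADs covered 2.67% and 1.89% of the arm.

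On chromosome 14 the first gene was RNU6-458P, a pseudogene of the U6 spliceosomal RNA, and the first protein-coding gene was the olfactory receptor gene OR11H12. The first naive LAD was the 10 kb window over RNU6-458P itself, and the first primed LAD, 1.69 Mb into the arm, covered the olfactory receptor gene OR4K13. LADs of at least 100 kb began at 7.30 Mb in the naive list and at 7.10 Mb in the primed list. In front of them lay 146 protein-coding genes, and LADs covered 5.89% and 5.35% of that stretch.

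On chromosome 15, which began with RNU6-978P and the protein-coding gene LOC124903442, the first naive LAD covered a window over FAM30C at 1.15 Mb and the first primed LAD a window without genes at 0.51 Mb. The first LAD of at least 100 kb lay at 15.20 Mb in the naive list (over DPH6, NANOGP8, LOC105370765 and PRELID1P4) and at 15.41 Mb in the primed list (over DPH6, LOC124903464, RBM17P4 and HNRNPA1P45). DPH6 encodes an enzyme of diphthamide synthesis. The 15 Mb in between, in which the arm has its imprinted region, had 1.97% and 1.49% in LADs.

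On chromosome 21 LADs of at least 100 kb began nearest to the arm's start. Its arm began with ANKRD30BP2 and the protein-coding gene POTED. The first primed LAD, of 20 kb, lay over ANKRD30BP2 at 0.07 Mb, and the first naive LAD, of 10 kb, over LOC105372738 at 1.64 Mb. A naive LAD of 110 kb over LOC124904998 followed at 3.78 Mb and a primed LAD of 200 kb over CHODL, a C-type lectin gene, at 5 Mb. LADs already covered 16.4% and 20.6% of the arm before these. On chromosome 22, which began with LOC112268290 and the olfactory receptor gene OR11H1, no LAD reached 100 kb. Its first naive LAD lay at 6 Mb over the pseudogene E2F6P3 and its first primed LAD at 0.72 Mb in a window without genes. Where LADs less than 100 kb apart were joined, the first LAD of at least 100 kb moved to 13.09 and 13.68 Mb on chromosome 13, 6.47 and 6.35 Mb on 14, 10.48 and 10.39 Mb on 15, and 2.97 and 2.91 Mb on 21 (naive and primed).

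Few windows before the long arm were called. How much of that DNA has mappable sequence in the build was not tested, so the few calls do not tell where it lay in the nucleus. On chromosomes 13 and 15 no annotated gene lay there. The naive list had 6, all on chromosome 21, and the primed list had 6, 4 on chromosome 21 and 2 on chromosome 15. Every one was a single window, and 0 of them were in the other list. One naive window (chr21:8210001-8220000) covered 69.9% of RNA45SN2, an annotated ribosomal RNA unit, with its RNA18SN2, RNA5-8SN2 and RNA28SN2 parts, the genes that form the nucleolus. These units exist in many near-identical copies, so reads from any copy may fall on this one, and the call is uncertain.

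The centromere-side 10 Mb were nearly bare on chromosomes 13, 15 and 22 in both states. Their coverage was 0.1% in the naive and 0.3% in the primed list on chromosome 13, 0.3% and 0.4% on 15, and 0.1% and 0.3% on 22. The few windows called there were not shared: in the first 5 Mb, 0 windows lay in both lists on chromosomes 13, 14, 15 and 22, against 70 on chromosome 21. On chromosome 14 the first 10 Mb had 23.7% in naive and 31.2% in primed LADs, nearly all of it past 5 Mb. On chromosome 21 the shares were 56.3% and 58.3%. Pooled, the first 10 Mb had 16.1% and 18.1% in LADs and the last 10 Mb had 27.3% and 21.5%. The middle of the arms had 48.2% and 45.8%. Chromosome 21 carried most of the first value, since without it the first 10 Mb of the other 4 arms stood at 6.05% and 8.05%.

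Coverage was lower in bins with more genes, and the first 10 Mb of chromosomes 13 and 15 stood below most other bins with 20 to 34 genes. Across the 65 full bins of 5 Mb, coverage and the number of protein-coding genes had a Spearman rho of -0.79 in the naive and -0.76 in the primed list, and coverage and distance from the arm's start had a rho of 0.38 and 0.32. Without chromosome 22 the rho with distance was 0.28 and 0.25 over 58 bins. Neighbouring bins share LADs, so these values are descriptions. The sign of the distance trend differed between arms. The rho with distance was 0.49 and 0.55 on chromosome 13 and 0.31 and 0.32 on chromosome 15. It was -0.14 and -0.23 on chromosome 14, and -0.60 and -0.60 over the 6 full bins of chromosome 21. In the first 10 Mb of chromosomes 13 and 15, the 4 bins held between 20 and 34 protein-coding genes and had at most 0.4% in naive and 0.8% in primed LADs. The 14 other full bins of the 5 arms with 20 to 34 genes had a median of 49.8% and 34.9%. A single one of the 14 was below 1%, in the primed list. The 4 bins and the gene range were both chosen after the values were seen, so the contrast is a description. Bins just above the range varied. With 37 genes each, 25 to 30 Mb on chromosome 21 had 2.2% and 0.2%, and 30 to 35 Mb on chromosome 14 had 56.6% and 38.4%. Whether repeats and mappability beside the centromere have a part in the low coverage of the 4 bins was not tested.

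**Figure D3:**
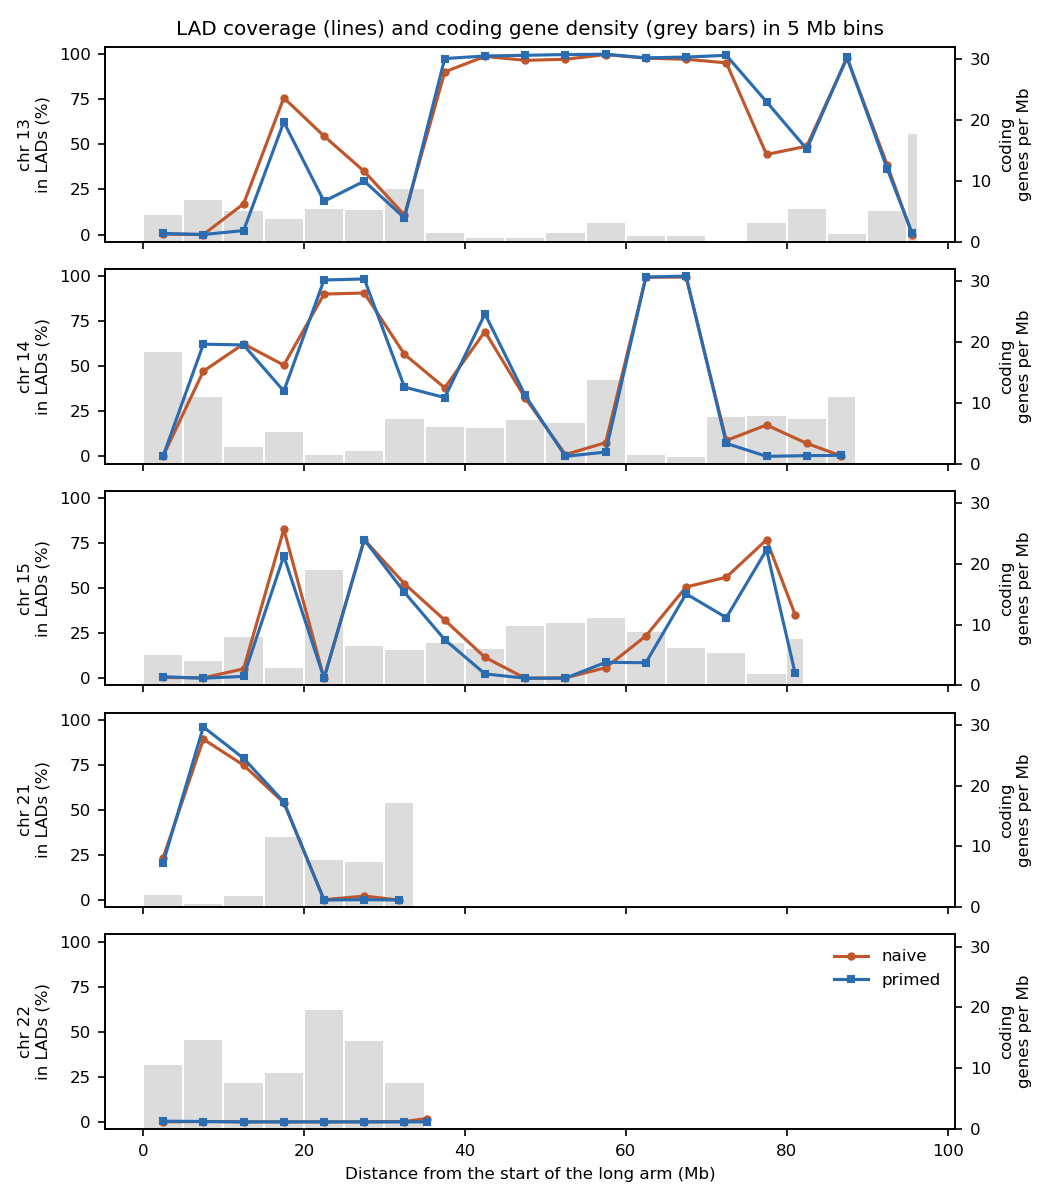
LAD coverage (%, left axis, circles naive and squares primed) and protein-coding genes per Mb (right axis, grey bars) in bins of 5 Mb along the 5 long arms, by distance in Mb from the window of the first gene. Bars are left out for a last bin shorter than 1 Mb. Coverage is high where the bars are low, as from 35 to 75 Mb on chromosome 13, while the first 2 bins of chromosomes 13 and 15 have low coverage beside moderate bars.

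Chromosome 13 had a long covered centre. From 35 to 75 Mb into the arm each bin had at least 90.2% in naive and 97.6% in primed LADs, with 1 to 15 protein-coding genes per bin. Before it, from 20 to 25 Mb, naive LADs covered 54.6% and primed LADs 18.4%, the widest naive excess of any 5 Mb bin on the 5 arms. Past it, from 75 to 80 Mb, the order was the other way, with 44.4% and 73.6%, the widest primed excess. Chromosome 14 had 2 covered blocks, at 20 to 30 Mb (90.3% naive, 98.1% primed) and at 60 to 70 Mb (99.4% and 99.7%), with 17 and 12 protein-coding genes. Its last 10 Mb had 12.2% in naive and 0.4% in primed LADs. Chromosome 15 had covered bins at 15 to 20 Mb (82.6% and 67.8%) and 25 to 30 Mb (76.8% in both), and between them, at 20 to 25 Mb, 0 windows in LADs and 95 protein-coding genes. Its last 10 Mb were again covered, with 66.5% and 51.7%. On chromosome 21 coverage lay in the first 20 Mb, and the last 10 Mb had 1.2% and 0.1%.

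Naive LADs of these arms came in more pieces than primed LADs, with less of their DNA in long ones. The mean length was 112 kb in the naive and 186 kb in the primed list, but the median was 20 kb in both, and on chromosomes 13, 14 and 21 the naive median (30 kb) was above the primed one (20, 20 and 25 kb). Of the naive LAD bases 33.7% lay in the 25 LADs of 1 Mb or longer, against 62.8% in 30 such LADs of the primed list. In the other 18 chromosomes the shares were 49.1% and 74.6%. LADs this long were 2.06% (naive) and 4.32% (primed) of those on the acrocentric chromosomes, beside 4.28% and 6.38% in the whole lists. Chromosome 13 had 17 and 14 of them, chromosome 14 had 5 and 10, chromosome 15 had 3 and 5, chromosome 21 had 0 and 1 and chromosome 22 had none. LADs of a single window came to 38.4% (naive) and 44.4% (primed) of those on these chromosomes, beside 40.1% and 45.8% in the whole lists. Gaps of a single window numbered 709 in the naive and 361 in the primed list. Once all gaps under 50 kb were closed, 86.7% (naive) and 89.9% (primed) of LAD bases lay in LADs of 1 Mb or longer.

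The longest LADs of chromosomes 13 and 14 were longer in the primed list and lay in several naive pieces, while on chromosomes 15 and 21 each list cut the longest LAD of the other. The longest primed LAD of chromosome 13 ran over 10.23 Mb (chr13:68360001-78590000) with 22 protein-coding genes inside, among them KLF12 and DACH1, which encode transcription factors, KLHL1, an actin-binding protein of neurons, and MYCBP2, a ubiquitin ligase of axons. Naive LADs covered 98.5% of it in 16 pieces. The longest of these, 4.21 Mb (chr13:74380001-78590000), was the longest naive LAD of the chromosome and held LMO7, TBC1D4 and SCEL beside MYCBP2. On chromosome 14 the longest primed LAD was 7.32 Mb (chr14:81230001-88550000) and held 8 protein-coding genes, with STON2, KCNK10, FLRT2 and SPATA7 the longest. Naive LADs covered 99.3% of it in 6 pieces, the longest 3.64 Mb (chr14:83560001-87200000) around FLRT2, a guidance receptor gene. On chromosome 15 the longest naive LAD, 2.38 Mb (chr15:85870001-88250000), held 1 protein-coding gene, AGBL1, and primed LADs covered 96.6% of it in 5 pieces. The longest primed LAD there, 2.89 Mb (chr15:93430001-96320000), held 1, MCTP2, and naive LADs covered 98.3% of it in 5 pieces. On chromosome 21 the longest naive LAD had 0.52 Mb and no protein-coding gene, with 94.2% in primed LADs in 3 pieces. The longest primed LAD, 1.09 Mb (chr21:29980001-31070000), lay in 4 naive pieces (97.2%) and held 35 protein-coding genes, among them the claudin genes CLDN8 and CLDN17 and the hair protein genes KRTAP24-1 and KRTAP26-1. That is 32.1 protein-coding genes per Mb inside a LAD, on an arm with 6.50 per Mb.

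The lists agreed over most of the covered DNA. Both covered 117 Mb, which was 86.4% of the bases in naive LADs of the long arms and 91.4% of those in primed LADs, and naive LADs alone covered a further 18.4 Mb (5.49%) while primed LADs alone covered 10.97 Mb (3.26%). Over all 23 chromosomes 42.3% of windows were in both lists, 6.6% in naive only and 2.56% in primed only. On chromosome 15 the naive-only share was 7.98% and the primed-only share 1.83%. It was 5.71% and 4.34% on chromosome 13, 5.83% and 4.25% on 14, and 3.59% and 4.48% on 21. Protein-coding genes per Mb were 1.68 in windows of both lists, 3.31 in naive-only, 3.92 in primed-only and 10.01 in windows outside LADs.

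Most state-specific stretches were single windows, and the directions differed in where they lay. Naive-only stretches numbered 942, of which 65.5% were 1 window. There were 725 primed-only stretches, and 82.8% of them were 1 window. Shared LAD windows lay on both sides of 58.5% of the primed-only stretches, so that these filled gaps in naive LADs, and of 25.9% of the naive-only ones. Stretches that touched no shared window were 52.8% of those in the naive and 21.9% of those in the primed direction. The other 18 chromosomes had like shares, with 51.3% of primed-only stretches between shared windows and 55.7% of naive-only stretches touching none.

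Of the 942 naive-only stretches 14 had at least 100 kb, beside 3.3% of those in the whole series, and of the 725 primed-only stretches 6 did, beside 0.595%. Both counts moved with short LADs and gaps: the naive count was 56 and the primed count 8 with LADs less than 50 kb apart joined, and 63 and 56 with LADs under 100 kb left out. The longest naive-only stretch, 270 kb on chromosome 13 (chr13:39290001-39560000), overlapped LHFPL6, a tetraspan membrane protein gene, between shared LAD windows. The next were 240 kb at SLCO3A1, an organic anion transporter gene (chr15:91750001-91990000), and 190 kb at NRXN3, which encodes the synaptic adhesion protein neurexin 3 (chr14:78010001-78200000). NRXN3 as a whole lay in LADs of both states, with 99.4% of its body in naive and 95.9% in primed LADs. Stretches of 180 and 170 kb followed on chromosome 14 (chr14:98130001-98310000 and chr14:97800001-97970000), without protein-coding genes and with long noncoding RNA genes such as LINC02295 and LINC01550. They lay in the last 10 Mb, where primed LADs were nearly missing. The sixth, 170 kb (chr15:100090001-100260000), lay in ADAMTS17, which encodes a secreted metalloprotease, and a further 140 kb stretch overlapped the same gene. On chromosome 21 the longest was 40 kb over BACH1 and on chromosome 22 it was 10 kb over E2F6P3.

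Primed-only stretches were fewer and 5 of the 6 of at least 100 kb lay on chromosome 13. Of these, 3 followed each other over GPC6 and DCT, with 710 kb (chr13:93160001-93870000), 170 kb (chr13:93880001-94050000) and 490 kb (chr13:94060001-94550000). From the start of GPC6 to the end of DCT, the gene of a melanin-making enzyme, naive LADs covered 1.5% and primed LADs 100.0%. Another 270 kb on chromosome 14 (chr14:60720001-60990000) overlapped MNAT1, SLC38A6, SIX4 and TRMT5, and from MNAT1 to TRMT5 naive LADs covered 0.0% and primed LADs 100.0%. A stretch of 210 kb (chr13:54170001-54380000) held the microRNA gene MIR1297 and no protein-coding gene. One of 140 kb (chr13:36160001-36300000) covered SOHLH2, a germ cell transcription factor gene, CCDC169 and their readthrough gene. The longest on chromosome 15 was 70 kb in SCAPER, on chromosome 21 30 kb at CHODL and on chromosome 22 10 kb without a gene.

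Of the 2218 protein-coding genes of the acrocentric chromosomes, 252 had at least 50% of their body in naive LADs (11.4%, beside 19% over all 19821 genes) and 234 in primed LADs (10.6%, beside 17.4%). Genes in both numbered 194 (8.75%, beside 15.5%). Naive LADs alone held 58 genes (2.62%, beside 3.46%) and primed LADs alone held 40 (1.80%, beside 1.9%), so neither pooled share stood above its background. The median gene had 0.0% of its body in LADs of either state, here and over the genome. Chromosome 15 had 28 naive-only (4.65% of its genes) and 3 primed-only genes (0.498%), and chromosome 13 had 18 (5.36%) and 17 (5.06%). Chromosome 14 had 10 (1.66%) and 15 (2.49%), and chromosome 21 had 1 (0.420%) and 5 (2.10%). The naive-only shares of chromosomes 13 and 15 and the primed-only shares of 13, 14 and 21 were thus above the background of all genes. The 1 gene of chromosome 22, DENND6B, was called naive-only from 1 window (55.6% of its body). Joining across gaps under 50 kb left 41 of the 58 naive-only calls and 19 of the 40 primed-only calls in place, and leaving out LADs under 100 kb left 19 and 26. A body of at least 100 kb was found in 38.1% of the genes in both, 39.7% of the naive-only genes, 27.5% of the primed-only genes and 15.7% of the genes in neither.

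The naive-only genes with the largest difference in covered share included HDC, which makes histamine, PTGDR, the prostaglandin D2 receptor gene, and MAB21L1, a gene of eye development, each with 100.0% of the body in naive and 0.0% in primed LADs. LOC112268119 and NANOGP8, a retrogene copy of the pluripotency factor NANOG, had the same values. NANOGP8 is a near-identical copy, so its call is uncertain. OR4F15, an olfactory receptor gene, had 97.5% and 0.0%, as had RASGRP1, an activator of Ras in lymphocytes. LHFPL6 had 100.0% and 3.84%. LOC124903496 (100.0% and 4.60%), EID1 (100.0% and 8.48%), PRTG (90.01% and 0.0%) and ADAMTS17 (91.4% and 2.70%) completed the 12. EID1 encodes an inhibitor of histone acetylation and PRTG the neural receptor protogenin. Of these 12, 5 kept their call under all 5 ways of joining or leaving out LADs, namely LHFPL6, LOC112268119, RASGRP1, PRTG and ADAMTS17. MAB21L1 kept it under 0 of 5.

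In the other direction 15 genes tied, with 0.0% of the body in naive and 100.0% in primed LADs, and the 12 longest of them were taken. Among them were MNAT1 (235 kb), the longest, CCDC169-SOHLH2 (130 kb), DCT (113 kb), CCDC169 (75.8 kb), SOHLH2 (46.3 kb) and TRMT5 (10.2 kb). TRMT5 modifies transfer RNA. DORIP1, LOC124903317, SSTR1 (a somatostatin receptor gene), PRR20A and PIGBOS1 were shorter than 10 kb, so each rested on 1 or a few windows. PRR20A has near-identical neighbours and is uncertain. MNAT1, CCDC169-SOHLH2, CCDC169, SOHLH2, DCT and TRMT5 kept their call under all 5 ways of joining or leaving out LADs, and GPC6, whose body was 1.68% naive and 100.0% primed, did so too. Some of these genes overlap or adjoin (CCDC169 with SOHLH2, and MNAT1 with TRMT5), so they are not independent of each other.

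**Figure D4:**
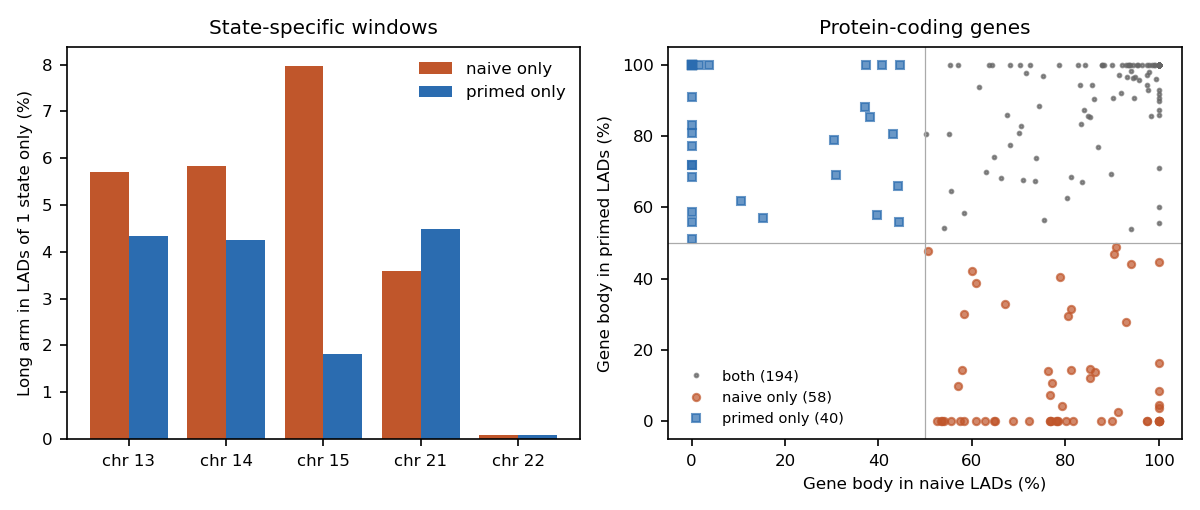
Left, share of each acrocentric long arm (%) in LADs of 1 state only. Right, share of the gene body (%) in naive and in primed LADs for the 194 protein-coding genes in LADs of both states, the 58 in naive LADs only and the 40 in primed LADs only, with lines at the 50% threshold. Genes in neither are left out. On chromosome 15 the naive-only bar (7.98%) is far above the primed-only bar (1.83%), and many state-specific genes sit on the axes, with no cover in the other state.

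Several gene lists had no member in LADs. To read their counts, 86.8% of all protein-coding genes on these chromosomes were in neither list and 82.5% had 0.0% cover in both, so a short list without a covered member is near that background. Of the 34 matched genes of the pericentromeric list, among them LIPI on chromosome 21, the connexin genes GJB2, GJB6 and GJA3 on 13 and NIPA1, NIPA2 and CYFIP1 on 15, 0 were in LADs of either state and all 34 had 0.0% cover. The imprinted genes of 15q11-q13 (SNRPN, UBE3A, ATP10A and others, 0 of 8) and the imprinted genes of 14q32 (DLK1, MEG3, MEG8 and others, 0 of 6) also had 0.0% in both states. So did the antigen receptor segments, with 0 of 127 for T cell receptor alpha and delta, 0 of 174 for the immunoglobulin heavy chain and 0 of 89 for lambda. Neighbouring segments lie close together, so they are not independent of each other, and the background above is of protein-coding genes, not segments. The lambda segments lie on chromosome 22, where 99.8% of protein-coding genes were in neither list. Serpin A genes (0 of 9) and RNase A genes (0 of 13), both clusters of chromosome 14, had none either. Among 29 olfactory receptor genes 27 were in neither, with OR4F15 in naive LADs only and OR4K13 (0.0% and 90.9%) in primed LADs only, the latter from the first primed LAD of its arm. Both calls were lost when LADs under 50 kb were left out.

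Most members of the list of neuronal adhesion and channel genes were in LADs. The list is mixed, with members such as AGBL1, NPAS3 and SCAPER that encode neither adhesion proteins nor channels. Of 22, 13 were in LADs of both states, 2 in naive only, 1 in primed only and 6 in neither. Over all protein-coding genes on these chromosomes the shares were 8.75%, 2.62%, 1.80% and 86.8%. The medians of the list were 92.3% in naive and 88.7% in primed LADs, beside 0.0% over all protein-coding genes. Its members were chosen with earlier results of these data known, so these values describe the list and not a gene class. The longest in both were NRXN3, GPHN, a scaffold of inhibitory synapses (55.6% and 64.5%), AGBL1 (100.0% and 100.0%) and MDGA2, a synapse regulator (96.4% and 100.0%). NBEA, which encodes a trafficking protein of neurons, was naive-only with 90.4% and 46.9%, and NPAS3, a neuronal transcription factor gene, with 90.8% and 48.9%, so both lay just under the 50% line in primed cells. SCAPER was primed-only with 30.5% and 78.9%, a call lost once gaps under 50 kb were closed. The longest in neither were DSCAM (13.2% and 0.0%), RYR3 (12.6% and 0.0%) and KCNJ6 (3.24% and 0.0%), on chromosomes 21, 15 and 21. The calls of NBEA and NPAS3 were kept under 1 and 2 of the 5 ways of joining or leaving out LADs. Many of these genes are long, and the part of gene length was not tested.

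On chromosome 13 the protocadherin genes PCDH9, PCDH17 and PCDH20, which encode cell adhesion proteins, were in both (97.8% and 100.0% for PCDH9, 100.0% and 89.9% for PCDH17, 100.0% and 100.0% for PCDH20) and PCDH8 in neither. The synaptic adhesion genes SLITRK1, SLITRK5 and SLITRK6 all had 100.0% in both states. Of the glypican pair, GPC5 was in both (99.3% and 100.0%) and its neighbour GPC6 in primed LADs only. Over all protein-coding genes of chromosome 13, 21.7% were in both, 5.06% in primed only and 67.9% in neither, and 56.5% of the arm was in both lists. The SLITRK genes lay in the covered centre of the arm. These lists were chosen with earlier results of these data known, and the part of location was not tested.

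Transcription factor genes of development were near the background of the chromosomes. Of 41 listed, 36 were in neither, beside 86.8% of all protein-coding genes there, 4 in both and 1, POU4F1, in primed LADs only (0.0% and 68.4%), with a call kept under 0 of 5 ways of joining or leaving out LADs. The 4 in both were KLF12 (100.0% and 100.0%), DACH1 (95.3% and 100.0%), MEIS2 (75.4% and 56.6%) and KLF5 (100.0% and 100.0%). RORA, TCF12 and ERG, the longest in neither, had 1.35%, 0.0% and 0.0% in naive and 0.0% in primed LADs. SIX4, at the end of the MNAT1 stretch, had 0.0% and 32.5%.

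Of 13 listed genes of chromosome 21, 10 were in neither, beside 81.1% of all its protein-coding genes. TMPRSS15, which encodes enteropeptidase (100.0% and 90.8%), and CYYR1 (81.3% and 68.4%) were in both, and ADAMTS5, a cartilage metalloprotease gene, was primed-only with 40.7% and 100.0%. TIAM1, APP, the amyloid precursor gene, and DYRK1A were the longest in neither, with 0.0% in both states. Of 49 keratin-associated protein genes, all on this chromosome, 30 were in both, 3 (KRTAP24-1, KRTAP25-1 and KRTAP19-6) in primed only and 16, the subfamilies near the end of the arm, in neither. The primed-only calls of ADAMTS5 and of these 3 genes were lost once gaps under 50 kb were closed. Over all protein-coding genes of chromosome 21, 16.4% were in both, 2.10% in primed only and 81.1% in neither. Neighbouring keratin-associated protein genes can share a LAD, so they are not independent of each other. Of 18 golgin A6 and A8 copies on chromosome 15, GOLGA8R (68.9% and 0.0%) and GOLGA8Q (58.3% and 0.0%) were naive-only, and the other 16 were in neither, beside 90.2% of all protein-coding genes of the chromosome. These copies are near-identical and their calls are uncertain, and both were lost when LADs under 50 kb were left out. Of 7 ribosomal protein genes, RPL10L, a testis retrogene, was in both with 100.0% and 100.0%, and 6 were in neither, again near the 86.8% of all genes.

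Of the 286 microRNA genes, 25 were in LADs of both states (8.74%, beside 17% over all 1911), 5 in naive only (1.75%, beside 3.66%) and 7 in primed only (2.45%, beside 2.15%). In all 30 were in naive LADs (10.5%, beside 20.6%) and 32 in primed LADs (11.2%, beside 19.1%). Chromosome 13 had 12 of its 40 in both and chromosome 22 had 0 of 46 in either. The 5 naive-only genes were MIR4305 on chromosome 13 and MIR4713, MIR7973-1, MIR7973-2 and MIR5572 on chromosome 15. MIR7973-1 and MIR7973-2 overlap and count as 1 place. The 7 primed-only genes were MIR1297 on 13, MIR3171 and MIR625 on 14, MIR3942 on 15 and MIR99A, MIRLET7C and MIR4759 on 21. A microRNA gene is far shorter than a window, so each call is that of 1 window, and MIR99A and MIRLET7C, shown above, share theirs. Their host gene MIR99AHG, a long noncoding RNA gene of 561 kb, had 76.8% of its body in naive and 52.0% in primed LADs, the opposite order to the window with the microRNAs.

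Promoter composition was set beside the class of the window. The median G and C content of the 250 bases before a start was 41.6% for 605 promoters in windows of both lists, 49.6% for 181 in naive-only windows, 54.0% for 115 in primed-only windows and 60.4% for 3507 outside LADs. Over the whole table the medians were 44.0%, 48.8%, 58.0% and 61.2%. At least 1 GATC was found in 43.0%, 35.9%, 43.5% and 33.6% of the acrocentric promoters of these classes. The promoters of PTGDR (61.6% G and C) and HDC (49.6%) were both naive-only. Those of GPC6 (37.6%, at a start inside the gene body) and MNAT1 (47.6%) were both primed-only. Single genes thus did not keep to the order of the medians.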

How the data were processed

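Per the labels, pA-DamID libraries of naive and primed H9 cells were made with an LMNB1 antibody or with untethered Dam. Tools named in the submitters' processing notes are SICER, SAMtools 1.10 and BWA, with hg38 as the build. For step order, thresholds and pooling of libraries, nothing is given in the sources used here. The deposited files hold 1 table of interval coordinates per state (chromosome, start and end). The labels speak of final lists and the deposited files of simple lists, with no word on how they differ. Intervals on chromosomes 13, 14, 15, 21 and 22 were turned into 10 kb windows. Genes came from RefSeq (GRCh38.p14): 58419 of 59792 entries, without those placed on scaffolds or patches. Genes with at least 50% of the body covered counted as inside LADs. All 19 gene lists and the members were chosen with earlier results of these data known, and so were the rules. Of the pericentromeric list, 34 of 35 symbols matched.

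The rule for named genes takes, per chromosome, the first gene, first protein-coding gene and first LAD, the longest LAD per list and the longest stretch per direction (up to 4 genes each), the 6 longest stretches and the 12 genes with the largest difference per direction, and listed members that differ (with up to 4 in both and 3 in neither). Genes outside it (the microRNA cluster, TRIM9, GPC6's promoter, DENND6B, the ribosomal unit, further list members) were chosen after their values were seen. Some genes that the rule names are not reported here. Promoters were found for 1855 of 2218 protein-coding genes and mature sequences for 273 of 286 microRNA genes.

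As alternatives, gaps under 50 or 100 kb were closed, LADs shorter than 50 or 100 kb dropped, or both. Others moved the start of the long arm, the zone or the 50% threshold, or left out a chromosome. Scripts were tested on simulated data, where 200 of 2218 genes were switched: 200 were recovered and 0 were called outside the switched windows. The simulated lists differed only in those windows, so the outcome checks the code and not recovery in real lists. Software was matplotlib 3.10.9, SciPy 1.17.1, pandas 2.3.3, numpy 2.4.6 and Python 3.11.15.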

Additional observations from a re-analysis of the deposited data

How the results depend on the processing

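No paired analysis was possible because each state has 1 pooled list, so replicate numbers could not be used as a block, and for the same reason no replicate could be left out. A share is taken as moved when it was outside the 95% exact binomial interval of the main share over windows, which takes windows as independent and covers no replicate error, and a count when it changed over 1.5 times. Given in this order are 5 settings: LADs less than 50 kb apart joined, less than 100 kb apart joined, under 50 kb left out, under 100 kb left out, and joined at 50 kb with those under 100 kb then left out. Naive coverage of the long arms was 44.7, 46.4, 36.2, 33.2 and 44.0%, primed coverage was 40.5, 41.5, 35.8, 34.4 and 39.8%, and the difference was 4.21, 4.88, 0.434, -1.21 and 4.199 points, with its sign turned once. Coverage of the first 10 Mb was 20.2, 20.9, 12.4, 7.82 and 20% (naive) and 20.7, 21.04, 15.7, 14.4 and 20.3% (primed). The naive-only share was 5.79, 6.13, 4.24, 3.69 and 5.68% and the primed-only share 1.57, 1.25, 3.80, 4.90 and 1.48%. LADs of 1 Mb or longer held 86.7, 90.6, 37.5, 40.9 and 88.2% of naive and 89.9, 92.4, 66.7, 69.4 and 91.6% of primed LAD bases. Naive-only stretches of at least 100 kb numbered 56, 75, 44, 63 and 52, and primed-only ones 8, 11, 26, 56 and 10. Naive-only genes numbered 71, 82, 37, 27 and 66, and primed-only genes 30, 26, 41, 46 and 30. Of the 24 genes with the largest differences, 16, 13, 21, 20 and 16 kept their call.

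Leaving out chromosome 13, 14, 15, 21 or 22, in this order, gave 31.5, 39.0, 43.7, 40.7 and 45.0% naive coverage, 28.9, 36.5, 42.7, 38.2 and 42.6% primed coverage and a difference of 2.56, 2.45, 0.953, 2.57 and 2.49 points. The first 10 Mb then had 20.1, 14.2, 20.1, 6.05 and 20.1% and 22.6, 14.8, 22.5, 8.05 and 22.6%, the naive-only share was 5.40, 5.37, 4.68, 5.70 and 6.13%, the primed-only share was 2.84, 2.91, 3.73, 3.13 and 3.64%, and LADs of 1 Mb or longer held 20.95, 36.5, 36.2, 37.0 and 33.7% of naive and 50.6, 61.8, 65.1, 68.6 and 62.8% of primed bases. Starting at the first protein-coding gene, or at the first gene with the short arm included, gave naive coverage of 40.6 and 38.6%, primed coverage of 38.3 and 36.5%, and first 10 Mb with 17.4 and 1.72% and 19.6 and 2.24%. The first 5 Mb had 4.84% and the first 20 Mb 29.2% in naive, and 4.52 and 27.3% in primed LADs. At 90% and 10% of the gene body, naive-only genes numbered 26 and 76 and primed-only genes 41 and 36. The difference by chromosome turned its sign on 13 (-0.249 and -1.30 points) and 14 (-0.892 and -3.05) with LADs under 50 or 100 kb left out, and on 21 with LADs joined at 50 kb (1.01), at 100 kb (2.32) or joined and then left out (0.505). Depth is unknown and limits every call.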
